A study of Mus musculus with 6 samples.

Results

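Pax1, Pax2, Pax5, Pax6, Pax8 and Pax9 are 6 genes of the Pax family known from tissues other than muscle, and their transcripts were followed in the mouse forelimb bud. Members were taken by gene symbol, with every probe set that the array annotation assigns to them alone. This gave 14 probe sets for 5 of the 6 genes, out of 45101 probe sets and 18193 genes on the array. No probe set is annotated to Pax2 here, so its transcript was not analysed. The readings were 6 one-colour arrays, each of a proximal or a distal bud part from CD1 embryos at E10.5.

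Each combination of part and condition had 1 array, so there is no replicate and no error for a difference between arrays. Nothing in the labels says how many buds or embryos were pooled for an array. The control arrays carry the genotype label Ring1A-/- and received no retinoic acid (RA), although their description calls them WT. The double knockout (dKO) arrays are Prx1-Cre; Ring1A-/-; Ring1Bfl/fl, also without RA. Control and dKO thus share the loss of Ring1A and differ, going by the labels, in the Ring1B allele and the presence of Cre. RA embryos are WT, and their mothers were given all-trans RA by gavage at 100 mg/kg at E10.25, so RA and the Ring1A genotype change together against the control. Prx1-Cre is active in limb bud mesenchyme, so other cells of the bud are not its targets.

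Pax genes encode transcription factors that bind DNA through a paired domain. Pax1 and Pax9 form a subgroup without a homeodomain and pattern the sclerotome, the pharyngeal pouches and the shoulder girdle. Pax6 carries a paired domain and a full homeodomain, and directs formation of the eye, forebrain, spinal cord and pancreas. Pax2, Pax5 and Pax8 form the subgroup of the kidney, the midbrain-hindbrain boundary, the thyroid and the B cell. In the normal forelimb bud Pax1 marks proximal anterior mesenchyme that contributes to the scapula, and Pax9 is known from anterior limb mesenchyme. RING1A and RING1B are the ubiquitin ligases of Polycomb repressive complex 1, which keeps many developmental regulators silent where they are not used, mainly at start sites rich in CpG.

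The promoters of the 3 genes with signal in this bud are shown because the comparisons turn on them. Each is the RefSeq window of build GRCm38.p6 from 250 bases before to 50 bases after a transcription start, 5′ to 3′ on the gene's strand, with every CpG in capitals. Pax1 is at chr2:147364744-147365043 (+), Pax6 at chr2:105668646-105668945 (+) and, for its downstream start, chr2:105682213-105682512 (+), and Pax9 at chr12:56695221-56695520 (+).
Pax1: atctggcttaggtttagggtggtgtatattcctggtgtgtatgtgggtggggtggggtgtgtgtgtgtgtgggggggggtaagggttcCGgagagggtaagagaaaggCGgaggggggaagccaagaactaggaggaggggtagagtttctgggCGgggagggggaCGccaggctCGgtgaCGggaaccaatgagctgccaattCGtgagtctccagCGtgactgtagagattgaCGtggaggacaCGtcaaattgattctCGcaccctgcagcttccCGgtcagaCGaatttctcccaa
Pax6 upstream start: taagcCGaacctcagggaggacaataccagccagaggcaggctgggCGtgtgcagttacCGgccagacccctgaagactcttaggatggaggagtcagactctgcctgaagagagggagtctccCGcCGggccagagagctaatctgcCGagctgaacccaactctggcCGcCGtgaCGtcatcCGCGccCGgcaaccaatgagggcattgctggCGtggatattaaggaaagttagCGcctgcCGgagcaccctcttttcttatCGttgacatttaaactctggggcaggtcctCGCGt
Pax6 downstream start: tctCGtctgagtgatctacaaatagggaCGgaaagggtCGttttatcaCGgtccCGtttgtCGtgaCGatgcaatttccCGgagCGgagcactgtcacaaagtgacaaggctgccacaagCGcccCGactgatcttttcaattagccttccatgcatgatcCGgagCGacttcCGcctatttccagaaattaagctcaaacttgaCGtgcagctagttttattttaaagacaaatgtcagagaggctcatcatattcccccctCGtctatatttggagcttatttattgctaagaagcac
Pax9: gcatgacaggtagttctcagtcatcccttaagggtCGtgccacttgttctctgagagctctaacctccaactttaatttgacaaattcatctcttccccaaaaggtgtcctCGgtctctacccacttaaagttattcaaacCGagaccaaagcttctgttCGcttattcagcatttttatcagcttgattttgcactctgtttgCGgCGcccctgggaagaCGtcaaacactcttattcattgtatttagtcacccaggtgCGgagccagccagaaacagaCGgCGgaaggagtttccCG

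These windows held 13 CpG sites for Pax1, 18 and 16 for the Pax6 starts and 11 for Pax9. The median over 32851 promoters of 300 bases was 7, and 62.1%, 70.3%, 67.0% and 58.6% of those promoters held fewer sites than these windows in that order. Of the members without signal, Pax5 had 23 sites and Pax8 had 7, and the 3 listed starts of Pax2 had 7, 23 and 30. The hexamer TGACAG, which Meis factors bind, was found on either strand at 1 place in the downstream Pax6 window and 1 in the Pax9 window, and at 0 in the others. It occurs in 19.2% of all promoters of this length. The TATA box TATAAA (13.6% of promoters) and the RA element, AGGTCA repeated directly after a spacer of any 5 bases (3 of 32851 promoters), were searched on both strands and gave 0 matches in all 9 member windows. These searches describe the letters of the windows only.

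**Figure D1:**
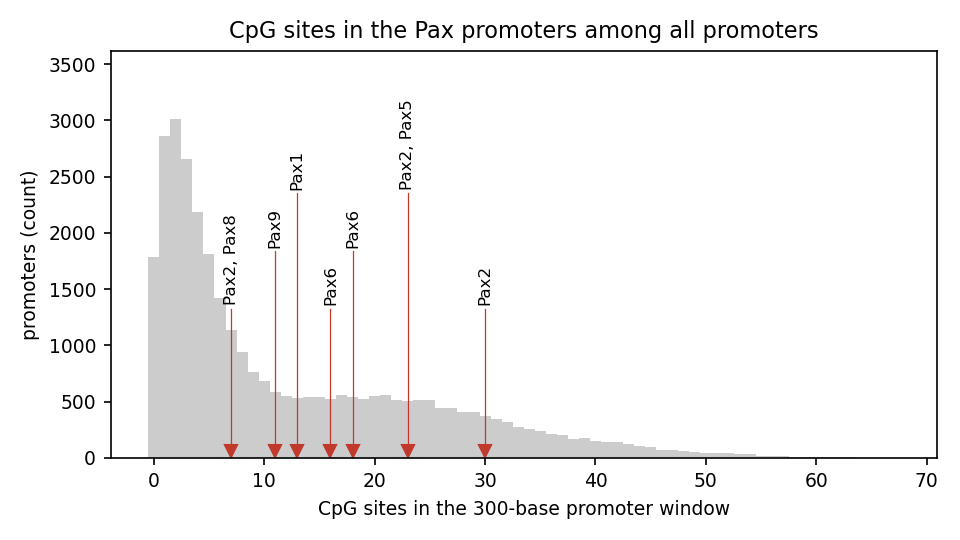
Number of RefSeq promoters (y axis) by the count of CpG sites in their 300-base window (x axis, grey bars), with the 9 member windows marked by red arrowheads and gene names. The Pax windows lie between 7 and 30 sites, and those of Pax6 and Pax9 hold 11 to 18, beside a median of 7 over all promoters.

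Signals were read against a floor, the median of all probe sets on the same array. The floor was 64.0 on the proximal and 59.5 on the distal control array, 73.0 and 76.1 for dKO, and 63.0 and 68.2 for RA. A signal at or below it is treated as not distinct from background and has no order. A difference against such a value is a lower bound, written "at least". The RA arrays stood apart from the other 4 in several ways. Xist was at 12.9 and 29.5 on the RA arrays and at 3017 or more on the others, while Eif2s3y was at 2783 and 3064 against at most 12.3. By these 2 sex-linked genes both RA arrays read as male and the other 4 as female. Sex thus changes together with RA against control and against dKO, and their effects cannot be told apart. The proximal RA array also had the lowest correlations with the others across genes (r = 0.927 to 0.951), the highest single signal (26458 against at most 16620) and the highest GAPDH 3′/5′ ratio, a sign of RNA quality (1.60 against 1.28 to 1.39). Of 7 limb mesenchyme markers all were above the floor on 4 arrays; Fgf10, at 51.2 and 13.8, was below it on the proximal dKO and proximal RA arrays. The deletions themselves were not visible. Ring1, the gene of RING1A, read 624 and 968 on the control arrays against 420 and 245 on the WT RA arrays. Rnf2, the gene of RING1B, read 2042 and 2070 on the control and 2147 and 1887 on the dKO arrays. Probe positions relative to the deleted exons are unknown here, so these readings check no genotype, and control and dKO below are the arrays labelled so.

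By the probe set used for each gene, Pax6 and Pax9 were above the floor in both parts of the dKO bud. On all control and RA arrays they were below it. None of their other probe sets was above the floor in both parts. Pax1 was a proximal transcript in control and RA, and in dKO its signal was lower proximally and higher distally than in control. Pax5 and Pax8 were not above the floor on any array.

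Pax6, probe set 1419271_at, had a signal of 10.29 on the proximal and 16.2 on the distal control array. The dKO arrays read 360.2 proximally and 287.6 distally. The RA arrays read 17.8 and 23.2. Both dKO arrays were high and the other 4 were below their floors. How many of all genes share this pattern was not counted. Genes 2-fold or more higher in dKO made up 4.07% of those tested proximally and 5.32% distally. The log2 difference of dKO over control was at least 2.49 proximally and at least 2.27 distally, or at least 5.63-fold and 4.83-fold. Within dKO the proximal signal was higher than the distal by 0.32 on the log2 scale, under the 2-fold mark, and no spread is available to judge it.

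Pax9, probe set 1442229_at, had a signal of 20.5 on the proximal and 20.6 on the distal control array. It rose to 272.8 and 280.0 in dKO. It was 10.0 on the proximal and 54.9 on the distal RA array. Again both dKO arrays were high and the other 4 were below their floors. The distal RA value came nearest, with a floor of 68.2 on that array. The log2 difference of dKO over control was at least 2.09 proximally and at least 2.23 distally. In dKO the parts differed by -0.04 (proximal minus distal), so the Pax9 signal was about even along the bud.

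Pax1, probe set 1449359_at, had a signal of 591.2 on the proximal and 5.76 on the distal control array. The dKO arrays read 270.6 and 112.5. The RA arrays read 1280.2 and 2.59. The order of its levels was proximal RA, proximal control, proximal dKO and distal dKO, with both other distal arrays below the floor and unordered. The 3 proximal arrays thus lay above the 3 distal ones, and dKO was the only condition with a distal signal above the floor.

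The proximal excess of Pax1 was a log2 difference of at least 3.31 in control, 1.27 in dKO and at least 4.23 in RA. Genes 2-fold or more higher proximally made up 1.35% of 11391 genes tested in control, 0.515% in dKO and 4.4% in RA. Genes lower by as much made up 1.4%, 0.722% and 6.16%. In each pair Pax1 was the 1 member higher proximally, of 1, 3 and 1 members tested, and 0 members were lower. In control and in RA, Pax1 was above the floor on the proximal array only. It could thus enter those counts only by being higher proximally. Against control, Pax1 in dKO differed by -1.13 proximally and by at least 0.92 distally. In RA it differed by 1.11 proximally, and distally both arrays were below the floor. The proximal RA reading, the highest of Pax1, lies on the array with the highest GAPDH 3′/5′ ratio (1.60), whose part in the result was not tested.

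The difference between the parts in the dKO effect on Pax1, distal minus proximal, was at least 2.05 on the log2 scale. The value is a bound and has no exact rank. Of 11348 genes tested in both parts, with values below the floor set to it, 1.22% reached 1 or more in that direction and 0.846% in the other. The same value was -0.22 for Pax6 and 0.14 for Pax9, each taken between lower bounds. With 1 array a group, the difference between the parts could not be tested.

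**Figure D2:**
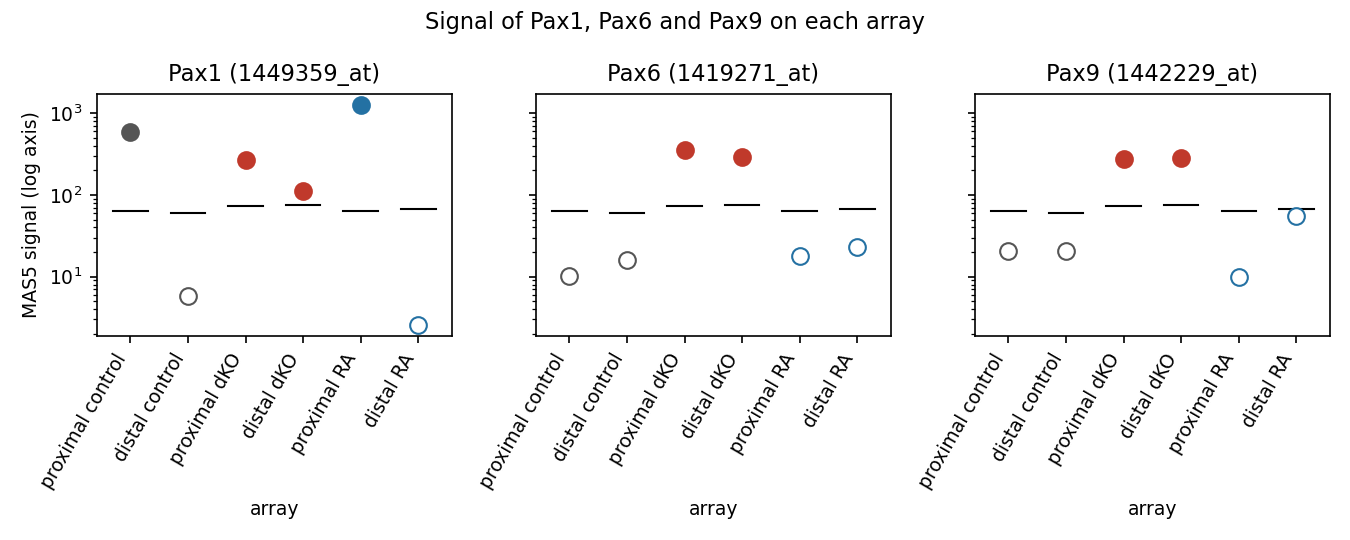
MAS5 signal (log y axis) of Pax1, Pax6 and Pax9 on each of the 6 arrays (x axis; grey control, red dKO, blue RA), 1 probe set a gene. Filled circles are above the floor of their array, drawn as a black line, and open circles are not: Pax6 and Pax9 are filled on the dKO arrays only (272.8 to 360.2), and Pax1 on every proximal array and on the distal dKO array (112.5).

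Of the 3 members tested in dKO against control, 2 were 2-fold or more higher in the proximal part and 1 was lower, beside 4.07% and 0.363% of all genes tested. In the distal part 2 were higher and 0 lower, beside 5.32% and 0.524%. The median log2 difference of the 3 members was 2.09 and 2.23, beside 0.02 and 0.01 for all genes tested. Pax6 and Pax9 had to be above a control floor they did not reach on any control array, so they could enter these counts only by being higher. In RA against control, 1 of 1 member tested (Pax1) was 2-fold higher proximally, where 3.69% of genes went up and 6.8% down by that much. Distally 0 members could be tested, and 2.16% and 2.13% of genes were higher and lower.

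An additive fit of condition and part over all 6 arrays asked whether an effect was alike in both parts. It was made with limma over the 12147 genes that exceeded the floor somewhere, Benjamini-Hochberg adjustment covered all of them, and "rose" and "fell" are kept for an adjusted p under 0.05. Only 2 residual degrees of freedom remain, and the parts stand in for replicates. Pax6 rose in dKO by 2.38 on the log2 scale (SE 0.20, limma adjusted p = 0.00625). Pax9 rose by 2.16 (SE 0.19, limma adjusted p = 0.00625). In the same fit 2.21% of genes rose and 0.115% fell. Both genes lay at the floor on the 4 other arrays and entered the fit through the dKO arrays only. The fitted sizes are thus lower bounds, and the genes could only be higher in dKO. Part of the agreement between parts, and so of the SE and adjusted p, is set by the floors.

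The fitted dKO effect on Pax1, -0.10 (SE 0.63, limma adjusted p = 1), averages a lower proximal and a higher distal value. The fitted RA effects were 0.66 for Pax1 (SE 0.63, limma adjusted p = 0.607), 0.09 for Pax6 (limma adjusted p = 0.834) and 0.09 for Pax9 (limma adjusted p = 0.823). None of the 3 passed, in a fit where 0.305% of genes rose and 0.239% fell. For Pax6 and Pax9 the value 0.09 is only the difference of the array floors. For Pax1 both distal values were floors, so 0.66 averages a measured proximal difference with a difference of floors. Set directly against dKO, RA gave -2.30 for Pax6 (SE 0.20) and -2.08 for Pax9 (SE 0.19), both with a limma adjusted p of 0.00415. The RA values were floors, so these sizes are lower bounds and RA could only be the lower. In this contrast 5.43% of genes fell and 0.939% rose. Pax1 did not pass in that contrast (0.76, SE 0.63, limma adjusted p = 0.483). Its distal RA value was a floor, so 0.76 is an upper bound.

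Position over the 3 conditions gave 2.94 for Pax1 (SE 0.51, unadjusted p = 0.000879, limma adjusted p = 0.146), with the proximal array higher in 3 of 3 pairs. In that fit 0 of 12147 genes passed, against 1156 at an unadjusted p under 0.05. Pax1 was below the floor on the distal control and distal RA arrays, so 2.94 and the position sizes below are lower bounds. In the control and RA pairs it could only be higher proximally, so without the dKO pair the direction was fixed by the floors. Part of the agreement between pairs, and so of the adjusted p, is set by the floors. Without the dKO pair the position effect on Pax1 was 3.77 (limma adjusted p = 6.45e-20), without the RA pair 2.29 (limma adjusted p = 0.00169) and without the control pair 2.75 (limma adjusted p = 0.000138). Each of those fits keeps 1 residual degree of freedom, so the variance comes almost wholly from the pool of genes. Without the proximal RA array alone it was 2.29 (limma adjusted p = 0.00165).

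**Figure D3:**
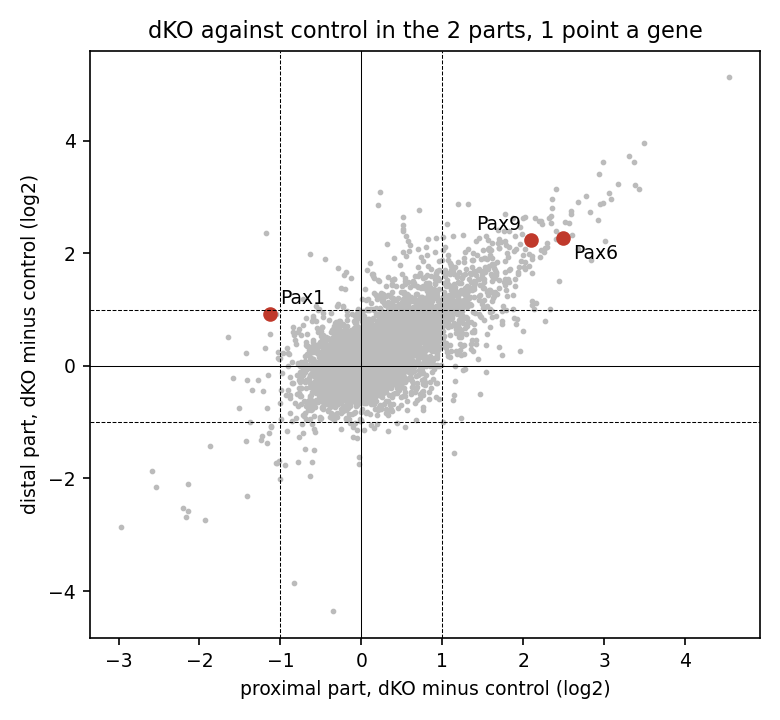
Log2 difference of dKO minus control in the proximal part (x axis) and the distal part (y axis) for 11348 genes tested in both (grey points), with dashed lines at 2-fold. Pax6 and Pax9 (red) lie in the upper right at values that are lower bounds, and Pax1 (red) lies in the upper left, at -1.13 proximally and at least 0.92 distally.

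The probe sets of a gene did not all show these signals. For Pax6, 2 of 5 probe sets were above the floor on any array. Probe set 1419271_at, used above, was chosen by a mean that included the dKO arrays. Probe set 1437816_at had control signals of 19.4 and 19.9, dKO signals of 114.1 and 60.4 and RA signals of 51.0 and 28.3, above the floor on the proximal dKO array only (log2 at least 0.83 over control). Its fitted dKO effect was 0.60 (SE 0.20, limma adjusted p = 0.371 with every probe set as its own feature). The other 3 were below the floor throughout: 1425960_s_at read at most 18.0, 1452526_a_at at most 47.8 and 1456342_at at most 44.9.

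For Pax9, 1 of 3 probe sets was above the floor. Probe sets 1421246_at and 1421247_at stayed below the floors of 73.0 and 76.1 in dKO, at 52.2 and 35.6 for the former and 52.7 and 41.2 for the latter. When a gene was taken as the mean over its probe sets, the dKO differences shrank to 0.78 and 0.74 for Pax6 and to 0.82 and 0.98 for Pax9, so neither was 2-fold. The fitted effect on Pax6 then lost its call (0.76, limma adjusted p = 0.05), and that on Pax9 kept it (0.90, limma adjusted p = 0.0288).

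For Pax1, the other probe set, 1443476_at, was above the floor on the proximal RA array only (87.9). Elsewhere it lay between 11.4 and 32.0. Its highest array was thus the same as that of 1449359_at, but it gave no measured value on the other arrays. With the mean over both probe sets, the Pax1 differences from control were -0.47 (dKO) and 0.79 (RA) proximally, short of 2-fold, and its proximal excess within dKO was 0.60; with an offset of 50 in place of the floor, the proximal dKO difference was -0.9999 and that excess 0.98. The place of each probe set in its transcript was not used here.

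Pax5, known as the B lineage factor, had signals of 0.705 to 22.5 over its 2 probe sets and the 6 arrays. Pax8, known from the thyroid and kidney, had signals of 2.07 to 21.9 over its 2. The highest of these readings lay at percentile 32.7 of its array for Pax5 and 33.1 for Pax8. The dKO arrays were thus no exception for these genes. No array here is a positive control for either gene, so a probe set that does not detect its transcript could not be told apart from an absent transcript.

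**Figure D4:**
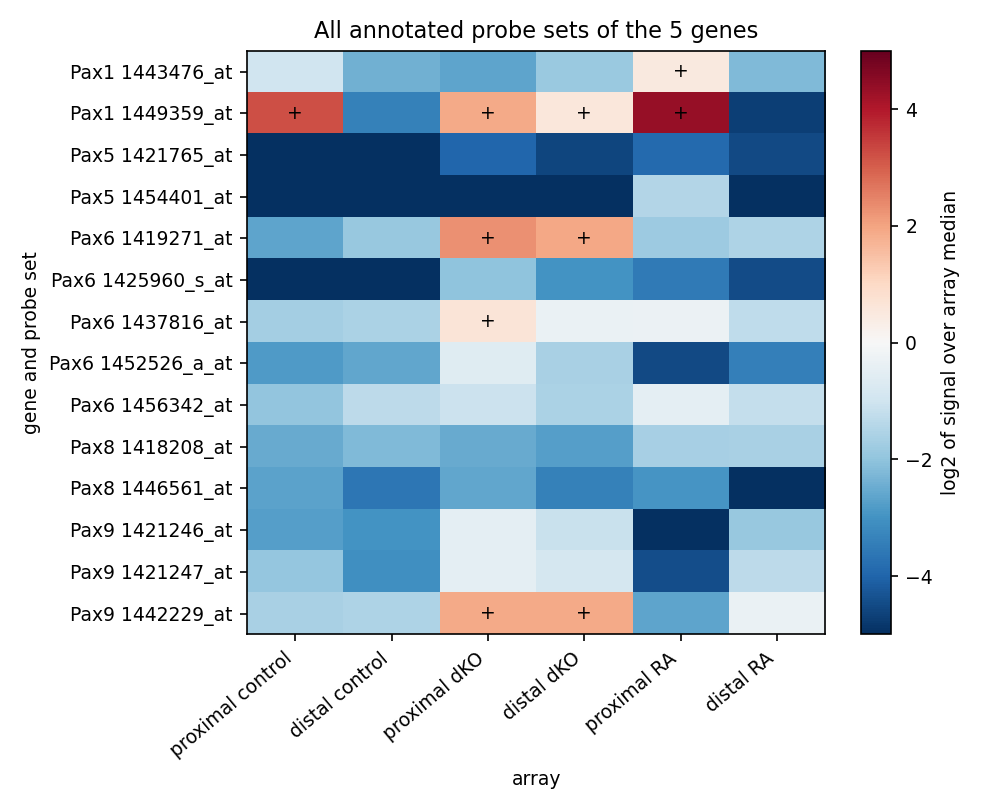
Log2 of signal over the array median (colour, clipped at both ends of the scale) for the 14 probe sets of 5 genes (rows) on the 6 arrays (columns); a plus marks a value above the floor. Pax6 has 3 marked readings, Pax9 2 and Pax1 5, and Pax5 and Pax8 have 0.

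Of the Pax genes left out of the group, Pax7, a muscle precursor factor, had control signals of 33.1 and 20.5, dKO signals of 225.9 and 167.5 and RA signals of 62.5 and 151.2. Its dKO differences, at least 1.82 and 1.49, were past 2-fold in both parts, but the fitted effect did not pass (1.66, SE 0.39, limma adjusted p = 0.113). Pax3, of the same subgroup, was 2-fold higher in dKO distally (1.83) and differed by 0.11 proximally (fitted 0.97, limma adjusted p = 0.504). Pax3 also had a proximal excess in control, 2.33, that was 0.61 in dKO and 2.33 in RA. Pax4 was below the floor on all arrays.

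Genes that work with Pax proteins were read from fixed lists. Of the sine oculis, Eya and Dach genes, which encode partners of Pax proteins in eye, ear and muscle, 9 of 11 on the array were tested in dKO, and 1 rose and 0 fell. Over all genes 2.21% rose and 0.115% fell, which is the background for each list here. A gene above the floor on dKO arrays only, such as Nkx6-1, En2 or Tbx1, enters a list's count only through dKO and can only be higher there, so these counts describe the genes and support no direction of a list. The gene that rose was Six3, an eye and forebrain factor above the floor on both dKO arrays and, at 69.9, on the proximal RA array (at least 1.11 proximally and 1.80 distally; fitted 1.45, limma adjusted p = 0.0302). Proximally 1 of 9 was 2-fold higher, and distally 3 of 9 were, with medians of 0.15 and 0.33. Eya1 and Eya4, transcriptional coactivators, were the other distal ones at 1.15 and 1.63, named after their values were seen. In RA, 0 of 9 passed.

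Of the eye and neural progenitor genes, 2 of 4 tested rose in dKO and 0 fell: Six3, already counted, and Nkx6-1, a spinal cord and pancreas factor (fitted 0.98, limma adjusted p = 0.0456). The 12 on the array included Rax, Six6 and Olig2, which were below the floor on all 6 arrays. Of the midbrain-hindbrain genes, 1 of 5 rose, En2, an Engrailed homeobox gene (at least 2.15 and 2.64; fitted 2.39, SE 0.21, limma adjusted p = 0.00625). Fgf8, a signal of the apical ectodermal ridge too, was 2-fold lower distally (-1.13). Of the kidney genes, 0 of 8 passed. Wt1, a kidney and mesothelium factor, was 2-fold higher in dKO in both parts (at least 2.14 and 1.02; limma adjusted p = 0.0875) and in RA in both parts (at least 2.70 and 1.37; limma adjusted p = 0.0709).

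Of the thyroid and pharyngeal genes, 1 of 2 tested rose in dKO: Tbx1, a pharyngeal T-box factor (at least 1.75 and 1.07; limma adjusted p = 0.0453). Hhex, a homeobox gene of the thyroid and liver, was 2-fold higher proximally (1.37) and differed by 0.61 distally. Of the B lymphoid genes 0 of 3 passed, with Ebf1, an early B cell factor also used in mesenchyme, 2-fold higher in both parts (1.03 and 1.48; limma adjusted p = 0.104). Among the shoulder girdle genes, the setting in which Pax1 is known in the limb, 0 of 4 rose in dKO and 1 fell, Tbx15, a T-box gene of scapula growth (-1.17 and -0.75; limma adjusted p = 0.0423). Alx1, an Aristaless-like homeobox gene, was 2-fold higher in dKO distally (306.5 to 1194, log2 1.96) and by 0.81 proximally, and did not pass (fitted 1.39, limma adjusted p = 0.325). Its proximal excess was 1.55 in control, 0.40 in dKO and 2.79 in RA, so it too was smallest in dKO. Emx2, required for the scapula blade, read 1120 on the proximal and 781 on the distal control array, 1044 and 1162 with dKO, and 992 and 862 after RA. In RA, 0 genes of these 7 lists passed.

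Markers of other tissues were read beside the members. In bulk samples fewer cells of a type and less RNA per cell cannot be told apart. For Pax1 and Pax9 the tissue to compare is the sclerotome and somite. Of 9 markers, 8 are on the array, with 5 or 6 above the floor on each array. Their summed signal on the proximal and distal array was 4160 and 2666 for control, 3465 and 2580 for dKO, and 6867 and 3109 for RA. It was thus highest on the proximal RA array and higher proximally in each pair, as Pax1 was. On the proximal RA array Meox1 (2453), Tcf15 (1776) and Foxc2 (1358) made up most of the sum. In RA, of 6 markers tested, 4 were 2-fold higher and 2 lower proximally, beside 3.69% and 6.8% of all genes. Distally 2 were higher and 2 lower, beside 2.16% and 2.13%. In dKO the sum was lower than in control, but the markers differed both ways: of 6 tested, 1 was 2-fold higher and 2 were lower in the proximal part, against 2 and 1 in the distal part, with a median log2 difference of 0.36 and 0.68. Tbx18, a T-box gene of somites, differed in dKO as Pax1 did, by -1.12 proximally (1678 to 769) and 0.57 distally (660 to 976), but was lower in RA in both parts (-2.66 and -1.22). Foxc2 was 2-fold higher in both parts (1.59 and 1.01; limma adjusted p = 0.244), and Foxc1 distally (0.64, and at least 1.05 distally; limma adjusted p = 0.206), the direction of Pax9 in both parts and of Pax1 in the distal one. Meox2, with control signals of 1069 and 1271 and dKO signals of 519 and 385, fell in dKO (-1.04 and -1.72; limma adjusted p = 0.0449) and in RA (fitted -1.79, limma adjusted p = 0.0448). Foxc1 and Foxc2, forkhead genes of paraxial mesoderm, rose in RA (fitted 2.11 and 3.31, limma adjusted p = 0.0321 and 0.0352). The sclerotome genes Nkx3-2 (0.968 to 6.41) and Uncx (3.39 to 56.2) were below the floor on all 6 arrays. The part of somite tissue in the Pax1 and Pax9 differences was not tested.

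For Pax6 the tissues to compare are neural and lens. Lens markers were below the floor in 4 of 4 on all 6 arrays. Of 5 neural progenitor markers, 1 exceeded the floor on each control array (Nes), 3 on each dKO array (Sox1, Sox3 and Nes), 1 on the proximal RA array (Nes) and 2 on the distal one (Nes, and Sox1 at 205.4), and Sox2 and Fabp7 were below the floor throughout. Summed, they gave 491 and 409 (control), 947 and 1026 (dKO) and 485 and 680.2 (RA). Of 7 neuron markers, 6 proximally and 5 distally exceeded the floor in control, as many in dKO, and 3 and 4 after RA, with sums of 1772 and 1227, 2002 and 1648, and 1141 and 1046. Nefl and Nefm, neurofilament genes, rose in dKO (fitted 2.05 and 1.60, limma adjusted p = 0.0276 and 0.0151). Dcx, a gene of migrating neurons, was 2-fold lower in dKO in both parts (1049 to 468 proximally and 627 to 241 distally; fitted -1.27, limma adjusted p = 0.0621), and Elavl3, a pan-neuronal gene, was below the floor throughout. Their part in the Pax6 result was not tested. For the Pax2, Pax5 and Pax8 subgroup, nephric markers were above the floor in 0 of 4 in control and 2 of 4 in dKO (Lhx1 and Gata3). In RA they were above it in 1 of 4 proximally (Gata3, at 81.9) and 0 of 4 distally. Ret and Cdh16 were below it throughout. B cell markers were above it in 2 of 5 on every array.

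The genes next to the members on the chromosome were named through the RefSeq table, as the nearest protein-coding gene with a probe set on each side. Around Pax6 these are Rcn1, a calcium-binding protein of the secretory pathway, and Elp4, an Elongator subunit whose span overlaps Pax6. Both were above the floor on all 6 arrays. Rcn1 differed in dKO by 0.12 proximally and 0.19 distally (limma adjusted p = 0.953), and Elp4 by -0.10 and -0.47 (limma adjusted p = 0.831). Pax6 was thus the gene of this trio past 2-fold.

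On either side of Pax9 are Nkx2-9, a homeobox gene, and, across 1 gene without an annotated probe set, Prps1l3. Nkx2-9 was below the floor on all 6 arrays (20.4 to 60.6). Prps1l3 read 2308 and 1800 in dKO and 2342 and 1717 in control; it has close relatives, so its signal may not be its own. Around Pax1 are Nkx2-2 and Foxa2, regulators of the ventral neural tube. Both were below the floor on all 6 arrays, Foxa2 at 69.5 on the distal dKO array with its floor of 76.1. The neighbours of Pax5 (Melk and Zcchc7) and of Pax2 (Hif1an and Slf2) differed from control in dKO by between -0.37 and 0.27 on the log2 scale in either part, with limma adjusted p of 0.892, 0.98, 0.964 and 1. Of the neighbours of Pax8, Psd4 was below the floor and Cacna1b, a calcium channel gene, did not pass (limma adjusted p = 0.299).

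The genes whose pattern was most like each member were found by the distance between mean-centred floored log2 profiles over the 6 arrays, among 12147 genes. For Pax1 they were Fap, a serine protease of mesenchymal cells (distance 1.03, r = 0.979), Gsc, a homeobox gene (1.24, r = 0.953), and Dock10 (1.496, r = 0.982). The median distance of all genes to Pax1 was 4.02. Gsc signals, proximal then distal, were 377 and 20.1 for control, 467 and 140.4 for dKO, and 826 and 35.0 for RA. Like Pax1 it was distally above the floor in dKO only, but unlike Pax1 it was no lower proximally in dKO than in control.

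For Pax6 the nearest were Gcgr, the glucagon receptor (distance 0.014), Nrn1, the secreted neuronal protein neuritin (0.187), and Paqr9 (0.246), where the median of all genes was 2.73. For Pax9 they were Nrn1 (0.196), Gabra4, a GABA receptor subunit (0.245), and Acan, a cartilage proteoglycan (0.258), where the median was 2.47. Each of these 5 genes was above the floor on the dKO arrays only, so their profiles share the floors of the other 4 arrays with Pax6 and Pax9. Gcgr read 363.6 and 286.7 in dKO, beside 360.2 and 287.6 for Pax6, which are levels of different probe sets and no measure of relative abundance.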

How the data were processed

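The deposited values are signal intensity on a linear scale, made by the authors with MAS5 per the submitters' processing notes; each array was checked to have a mean of 500 after trimming 2% of its probe sets at either end. No MAS5 version is named in those notes. Total RNA was labelled as biotinylated cRNA, per the labels' protocols, and the table holds no detection calls. The number of arrays (1 a group) limits the precision.

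Of 45101 probe sets, 64 are controls; the annotation names 34958 with 1 gene, 932 with several, and 9211 with none. Gene IDs of 34741 of 34945 single-gene probe sets matched the RefSeq table. The probe set of highest mean log2 signal over all arrays, dKO included, stood for its gene. Signals below the array median were set to it before log2. For Pax6, 1419271_at was thus chosen through its dKO signals (360.2 and 287.6). Its control signals (10.29 and 16.2) were no higher than those of 1437816_at (19.4 and 19.9). The Pax6 differences, fit and call therefore use a probe set chosen with the values they compare. Genes above the floor on either array of a pair were compared at 2-fold. limma 3.58.1 (R 4.3.3) was fitted with a trended prior (4.64 prior degrees of freedom) and tested on simulated data. The members, gene lists, markers and searched motifs were chosen with earlier results of these data known. All members are named with every probe set; from the lists, genes 2-fold in the same direction in both parts, at most 4 a list; the 3 most alike genes for members spanning a log2 of 1; and the nearest measured neighbours. Other list and marker genes were named after their values were seen. Alternatives changed the scaling, floor, probe-set rule, filter, prior and arrays used.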

Additional observations from a re-analysis of the deposited data

Results flagged for a closer look

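Pax1 differed between dKO and control in opposite directions in the bud parts: its log2 difference was -1.13 proximally and at least 0.92 distally, each from 1 pair of arrays, and the difference between the parts was not tested. Proximally the signals were 591.2 in control and 270.6 in dKO, and distally 5.76, below the floor, and 112.5, over a floor of 76.1. The distal difference was under 2-fold and depended on the processing. It was 0.56 with arrays divided by their medians, 0.59 with quantile normalization and 0.64 with probe-set means. With the floor at the 25th percentile it was 3.27, and with the offset of 50 it was 1.54. Of the sclerotome and somite markers, Tbx18 also went opposite ways in dKO (-1.12 proximally and 0.57 distally), Meox2 was 2-fold lower in both parts, Foxc2 was 2-fold higher in both and Foxc1 distally, with a median over the markers of 0.36 proximally and 0.68 distally. Their part in this result was not tested.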

How the results depend on the processing

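Conditions were compared within part, and positions within condition, by the additive fit itself. No paired analysis by replicate number was possible because each group has 1 array. Among counts of members, 61 of 77 alternative values were within 1.5 times the reported ones. With a gene taken as the mean of its probe sets, 0 members were 2-fold higher in dKO in either part, 0 lower in dKO proximally, 0 higher in RA proximally and 0 higher proximally within dKO, and 1 rose in dKO. With an offset of 50 in place of the floor, 0 were lower in dKO proximally (Pax1 -0.9999) and 0 higher proximally within dKO (Pax1 0.98). With the floor at the 25th percentile, Pax9 made 1 member higher in RA distally and 1 lower proximally within RA. With no filter 4 members rose in dKO, Pax5 and Pax8 among them, whose values are then the array floors only. In that fit 7544 of 18193 genes rose in dKO and 112 fell. With no filter 1 member, Pax1, was also higher proximally over the 3 conditions, beside 324 genes higher and 444 lower. The position count was also 1, again Pax1, without the control, dKO or RA pair. Of 12147 genes, those fits had 124, 175 and 205 higher proximally and 170, 179 and 226 lower, in that order. Without the proximal RA array, a fit chosen after seeing the data, the position effect on Pax1 was 2.29. Pax6 kept its call for dKO in 9 of 10 alternatives (highest limma adjusted p 0.05) and Pax9 in 10 of 10 (highest 0.0466). In the reported fit both genes entered through the dKO arrays only, which set their direction.

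Signs turned only for values that had not passed. The fitted dKO effect on Pax1 was 1.07 with the floor at the 25th percentile, 0.27 with the offset and 0.0846 with probe-set means. Without the proximal RA array its RA effect was -0.31 and its RA minus dKO effect -0.21; with the 25th percentile floor the latter was -0.39. The position effect on Pax6 was -0.0056 without the dKO pair and -0.18 with that floor. The position effect on Pax9 was 0.0332 without the RA pair or the proximal RA array and 0.0073 with arrays divided by their medians, where its proximal minus distal difference in dKO was 0.0219. The cause was not tested.

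Dividing arrays by their medians took the all-gene median of the dKO difference from 0.02 to -0.17 proximally and from 0.01 to -0.35 distally, and the distal counts of all genes from 620 higher and 61 lower to 321 and 192. Pax6 then differed by at least 2.30 and 1.92 and Pax9 by at least 1.90 and 1.88, and genes that rose in the dKO fit went from 269 to 103. Quantile normalization gave 80, the 25th percentile floor 159, and the fit without the RA pair 1236. Depth is unknown for arrays; a signal under the floor gives only a bound.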
